A study of Vitis vinifera with 6 samples.

Results

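The genes described here are 8 aquaporin gene models of grapevine, 6 of the plasma membrane and 2 of the tonoplast, out of 28059 gene models in the table. They were taken from a list of identifiers. The plasma membrane genes are VIT_08s0040g01890, VIT_15s0046g02420, VIT_02s0025g03260, VIT_13s0067g00220, VIT_13s0019g04280 and VIT_06s0004g02850, which the list gives as PIP1 and PIP2 types without saying which is which. The tonoplast genes are VIT_06s0061g00730, annotated as aquaporin GAMMA-TIP3/TIP1;3, and VIT_16s0039g00220, annotated as aquaporin BETA-TIP. By their identifiers the genes lie on chromosomes 8, 15, 2, 13, 13, 6, 6 and 16, in the order in which they are named. All 8 were in the table, and each had at least 7 reads in every library.

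mRNA-Seq was carried out on a seeded clone of the wine cultivar Sangiovese (wild-type) and on its spontaneous seedless somatic variant (mutant), which otherwise has the same vine morphology but smaller berries and bunches. Both were sampled before fertilization at stage E-L 15 (flowers) and after fertilization as young berries (stage E-L 27) and ripe berries (stage E-L 38). A sample was a whole inflorescence or a whole bunch from vines in 1 germplasm collection, so each library mixes the tissues of the flower or berry, and no removal of seeds is described. There was 1 library for each clone and stage, 6 in all, each pooling RNA of 3 extractions from 1 biological replicate.

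Aquaporins are channel proteins that let water, and in some cases small neutral solutes, cross a membrane along its gradient. The plasma membrane intrinsic proteins (PIPs) work at the cell border. They fall into the PIP1 and PIP2 groups, and in several plants a PIP1 protein reaches the plasma membrane together with a PIP2 partner. The tonoplast intrinsic proteins (TIPs) sit in the membrane of the vacuole, which fills most of an enlarging berry cell and holds the sugars and acids of the ripe fruit. In Arabidopsis TIP1;3 is known from pollen, and beta-TIP proteins are known from the protein storage vacuoles of seeds.

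Between 70331451 and 98800321 uniquely mapped reads were counted per library. Levels are in RPM, the number of unique reads on a gene per 1000000 unique reads of the library, and 1 read was worth 0.0101 to 0.0142 RPM. RPM is not divided by gene length, so levels are compared between libraries for 1 gene and not between genes. Reads that fitted several positions were left out by the authors, which can lower the value of a gene with a near-identical copy, as PIP genes often have. The 2 flower genes VIT_18s0001g01760 (PISTILLATA) and VIT_18s0001g13460 (AP3) summed to 1076 RPM in wild-type and 939 RPM in mutant flowers, and to between 0.0405 and 21.9 RPM in the berries. In whole organs, fewer cells of a type and less RNA per cell cannot be told apart.

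VIT_13s0019g04280 is 1 of the 6 plasma membrane genes. In the order flowers, young berries and ripe berries, its values were 763, 1082 and 226 RPM in the wild-type against 744, 1162 and 231 RPM in the mutant. Young berries of both clones were highest and ripe berries lowest, with no overlap between stages. A similar course was found for VIT_15s0046g02420, with 407, 655 and 110 RPM in the wild-type against 393, 833 and 57.0 RPM in the mutant. For VIT_06s0004g02850 the wild-type had 201, 262 and 5.74 RPM and the mutant 210, 218 and 3.09 RPM. This gene stayed within 201 to 262 RPM in the flower and young berry libraries, and both ripe berry libraries were far below them.

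VIT_13s0067g00220 and VIT_02s0025g03260 were highest in flowers. The former had 61.5, 39.4 and 2.17 RPM in the wild-type against 61.0, 40.3 and 0.310 RPM in the mutant, so that the clones were close at the first stages and apart in ripe berries. The latter had 44.5, 34.2 and 15.5 RPM in the wild-type against 65.6, 31.5 and 11.02 RPM in the mutant. Its flowers differed most between the clones among the plasma membrane genes at that stage.

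VIT_08s0040g01890 took the reverse course. It had 250, 74.7 and 250 RPM in wild-type samples and 251, 68.6 and 283 RPM in the mutant. Both young berry libraries were the low ones, and ripe berries were back at or above the level of flowers. Alone among the 6 plasma membrane genes it was not lowest at E-L 38.

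**Figure D1:**
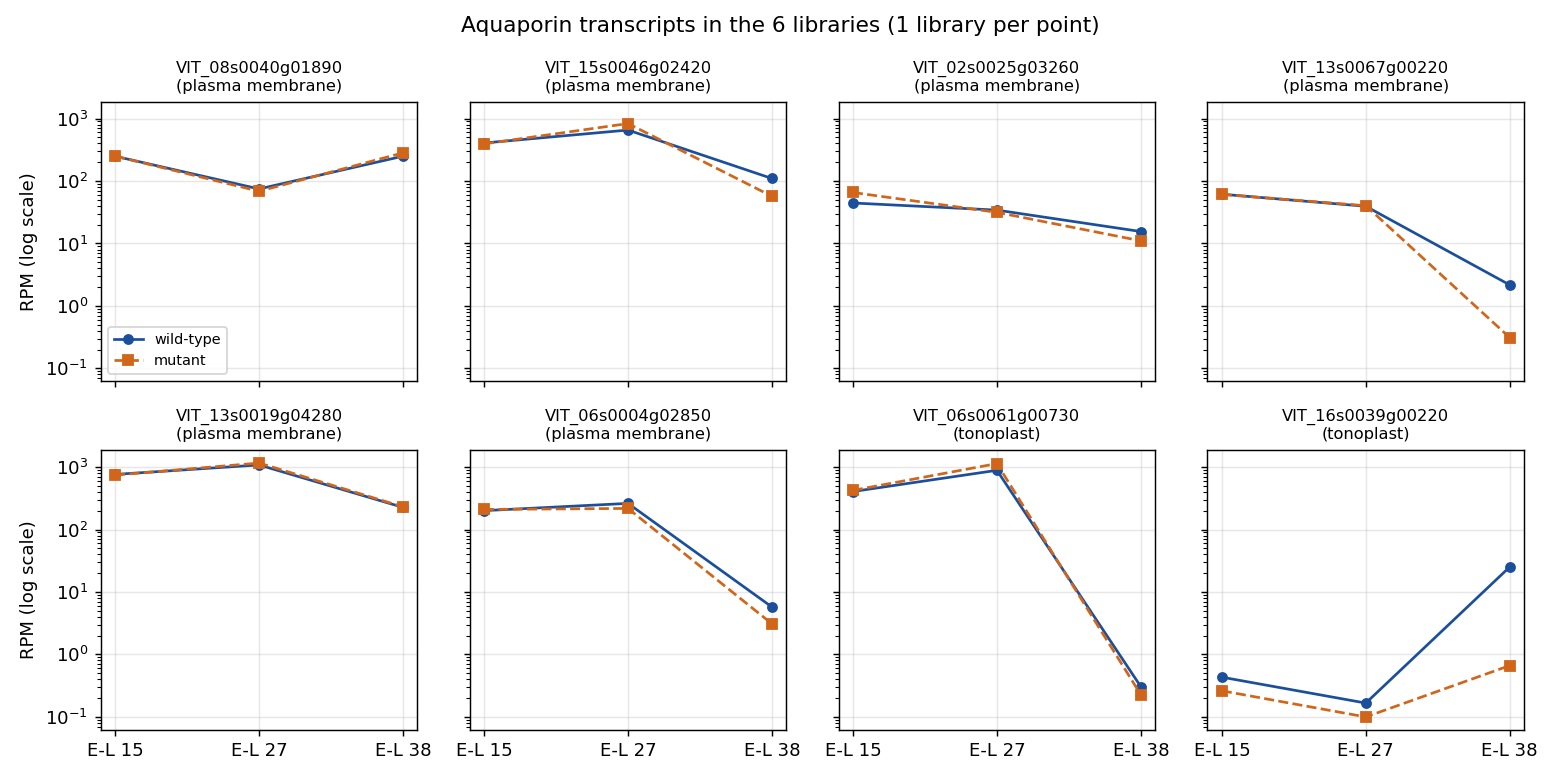
RPM of the 8 aquaporin genes (log scale) at the 3 stages, with circles and solid lines for the wild-type and squares and dashed lines for the mutant, each point being 1 library with no error bar. The lines of the clones nearly coincide in most panels, VIT_08s0040g01890 dips at E-L 27, VIT_06s0061g00730 drops from 888 and 1138 RPM to below 1 RPM, and VIT_16s0039g00220 is high in 1 library only, the ripe wild-type berries at 25.2 RPM.

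The tonoplast gene VIT_06s0061g00730 (GAMMA-TIP3/TIP1;3) had 406, 888 and 0.304 RPM in the wild-type against 423, 1138 and 0.226 RPM in the mutant. The ripe berry values rest on 30 and 16 reads, against 80161 and 80058 reads in young berries. The transcript was thus abundant in flowers of both clones, higher still in young berries, and nearly gone in ripe ones. From E-L 27 to E-L 38 its RPM was 2924-fold lower in the wild-type (95% counting interval 2048 to 4334) and 5043-fold lower in the mutant (3105 to 8824). Among genes averaging at least 1 RPM over both libraries, this was the 15th lowest ratio of 19020 for the wild-type and the 2nd lowest of 18567 in the mutant. The gene entered these sets only through the young berries. Since a count of 3 or fewer entered as 3 reads, how low a ratio can go depends on the level in young berries.

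VIT_16s0039g00220 (BETA-TIP) had 0.432, 0.166 and 25.2 RPM in the wild-type against 0.261, 0.0995 and 0.663 RPM in the mutant. These are 40, 15 and 2490 reads and 23, 7 and 47 reads. Ripe wild-type berries were the 1 library with an appreciable level, and the other 5 libraries were below 1 RPM. Within the mutant, ripe berries were also above young berries, by 6.66-fold (2.99 to 17.5), against 152-fold (91.8 to 271) in the wild-type.

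Stage changes were tested with edgeR in a fit of stage and clone over all 6 libraries, in which the clones stand in for replicates of a stage. Only 2 residual degrees of freedom remain, and with 1 library for each clone and stage no term for a stage change that differs between clones could be fitted. A gene was called at an adjusted p below 0.05, over 23570 genes. The SE given with an edgeR log2 change was derived from the test, as the size of the change divided by the square root of its F value.

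From flowers to young berries, 3 of the 8 aquaporins were called. VIT_06s0061g00730 rose by 1.29 ± 0.16 (log2, ± SE; adjusted p = 0.0138), and VIT_13s0019g04280 rose by 0.58 ± 0.11 (adjusted p = 0.0324). VIT_08s0040g01890 fell by 1.79 ± 0.13 (adjusted p = 0.00696). Over all genes, 10.7% were called higher and 11.4% lower. The other 5 did not pass: VIT_15s0046g02420 had a log2 change of 0.92 ± 0.31 and VIT_02s0025g03260 of -0.73 ± 0.25 (adjusted p = 0.103 and 0.107), and the remaining ones had larger adjusted p. By fold alone, with no test, 1 of 7 aquaporins with a mean of at least 1 RPM was over 2-fold higher in both clones (VIT_06s0061g00730, 2.19-fold and 2.69-fold) and 1 was over 2-fold lower (VIT_08s0040g01890, 3.34-fold and 3.66-fold), beside 7.54% and 7.82% of all genes.
With DESeq2 5 aquaporins were called at this step, 3 higher and 2 lower, where 15.9% of all genes were called higher and 15.8% lower. With any of the 4 flower or young berry libraries left out edgeR called 0 aquaporins and 0% of all genes. Without the ripe wild-type library it called 6 aquaporins and 40.1% of all genes, and without the ripe mutant library 7 and 39.4%. The log2 change of VIT_08s0040g01890 lay between -1.92 and -1.68 in these 6 fits.

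From young to ripe berries all 8 aquaporins were called, 2 higher and 6 lower, where 29.9% of all genes were called higher and 34.1% lower. The median log2 change was -2.38 over the 8 genes and -0.07 over all genes tested. The study had picked both tonoplast genes from these same libraries for their change at this step. Their calls were thus not independent of that choice, and nothing is read from the median, which includes them. The fall was largest for VIT_06s0061g00730, at -11.50 ± 0.25 (adjusted p = 0.000266), followed by VIT_06s0004g02850 at -5.43 ± 0.26 (adjusted p = 0.000429) and VIT_13s0067g00220 at -4.81 ± 0.75 (adjusted p = 0.00612). VIT_15s0046g02420 fell by 2.84 ± 0.33, VIT_13s0019g04280 by 1.93 ± 0.11 and VIT_02s0025g03260 by 0.95 ± 0.25 (adjusted p = 0.00264, 0.000571 and 0.0292). VIT_08s0040g01890 rose by 2.26 ± 0.13 (adjusted p = 0.000559). For VIT_16s0039g00220 the fit gave a rise of 6.13 ± 1.53 (adjusted p = 0.0247), a value that averages the unlike changes of both clones given above.

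In RPM, 2 of the 8 were over 2-fold higher and 6 over 2-fold lower in both clones between these stages, beside 12.3% and 30.8% of all genes. Among the higher ones, VIT_16s0039g00220 reached the mean of 1 RPM only through the ripe wild-type library, with 7 and 47 reads in the mutant. Among the lower ones, VIT_06s0061g00730 reached it only through the young berries. Nothing is read from their being counted. RPM itself moved at this step, since the median log2 change over the genes compared was -0.35 for the wild-type and -0.42 for the mutant. With TMM factors these medians were -0.0359 and -0.0283, VIT_02s0025g03260 was 1.78-fold lower in the wild-type in place of 2.21-fold, and 5 of the 8 aquaporins were over 2-fold lower in both clones and 2 over 2-fold higher, beside 4726 and 3334 of 18910 genes, together 42.6% of all genes. Leaving out 1 library at a time ended 2 of the edgeR calls. VIT_02s0025g03260 was called in 3 of 6 such fits, not without either young berry library or the ripe mutant library, and VIT_16s0039g00220 in 4 of 6, not without either young berry library. The change of VIT_16s0039g00220 was 3.13 without the ripe wild-type library and 7.55 without the ripe mutant library.

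From flowers to ripe berries the same 2 genes were called higher and the same 6 lower, where 30.9% and 35.9% of all genes were called. VIT_06s0061g00730 changed by -10.20 ± 0.24, VIT_13s0067g00220 by -5.41 ± 0.77 and VIT_06s0004g02850 by -5.21 ± 0.26. Smaller falls of 1.92 ± 0.32, 1.67 ± 0.26 and 1.34 ± 0.11 were found for VIT_15s0046g02420, VIT_02s0025g03260 and VIT_13s0019g04280. Adjusted p for these 6 genes lay between 0.000234 and 0.00694. VIT_16s0039g00220 rose by 4.48 ± 1.41 (adjusted p = 0.0455), but was called in only 2 of 6 fits with a library left out, where its value ranged from 1.77 to 6.18. The rise of VIT_08s0040g01890 was 0.47 ± 0.13 (adjusted p = 0.0290), and with total counts as the only scaling it was 0.0903 (adjusted p = 0.497). It was called in 1 of 6 fits with a library left out, the one without the ripe wild-type library. VIT_15s0046g02420 lost its call without either flower library (adjusted p = 0.0512 and 0.0522). In RPM VIT_08s0040g01890 was level in the wild-type (1.002-fold, 0.984 to 1.02) and 1.13-fold higher in the mutant (1.11 to 1.15). Counted by fold in both clones, 1 aquaporin was over 2-fold higher and 6 were over 2-fold lower, beside 12.9% and 32.1% of all genes. The higher one was VIT_16s0039g00220, which reached the mean of 1 RPM only through the ripe wild-type library. In the mutant it had 23 reads in flowers and 47 in ripe berries, and nothing is read from its being counted. Among the 6 lower ones, VIT_06s0061g00730 reached that mean only through the flowers, and nothing is read from its being counted either. The study's choice of the tonoplast genes, made on ripe berry changes in these libraries, bears on their calls here as well.

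**Figure D2:**
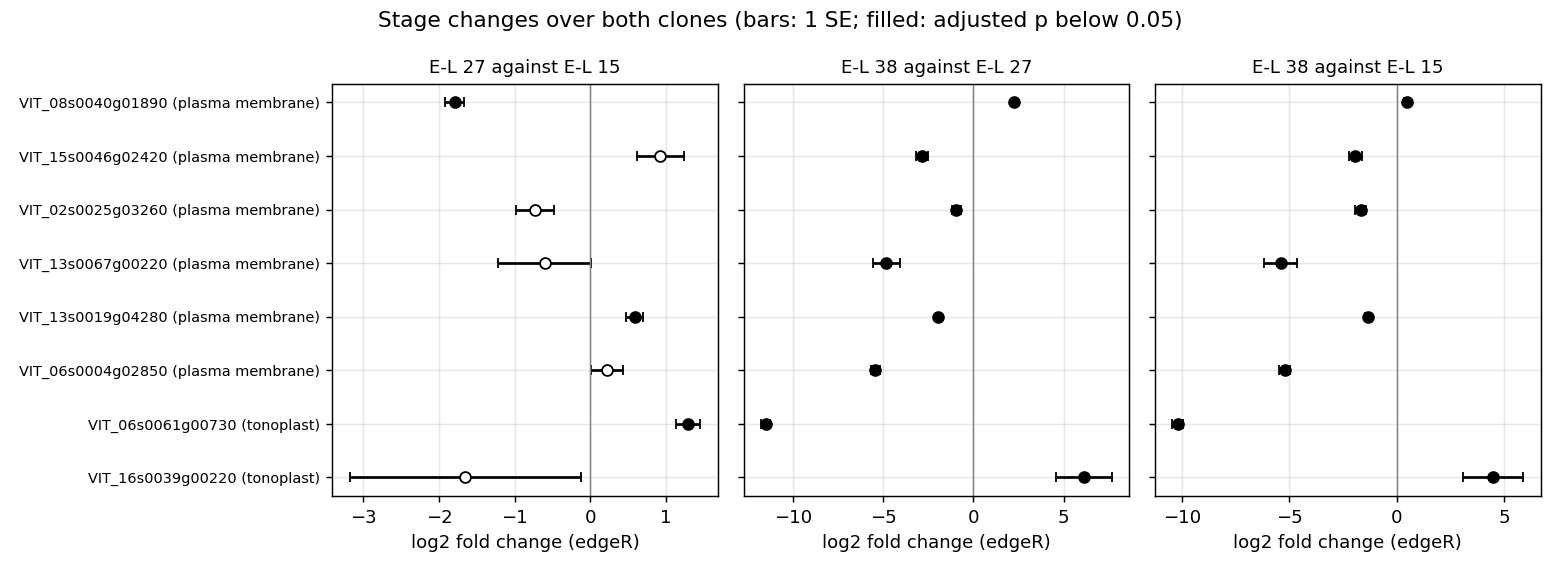
Log2 fold change of the 8 aquaporins between stages in edgeR, over both clones, with bars of 1 SE and filled points for an adjusted p below 0.05 (the horizontal scale differs between panels). At the first step 3 points are filled, and at the other steps all 8 are, 6 of them to the left of 0.

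Reads on the plasma membrane aquaporins together fell in ripe berries, and their make-up changed. The 6 genes summed to 1726 and 1725 RPM in wild-type and mutant flowers, to 2148 and 2353 RPM in young berries, and to 609 and 586 RPM in ripe berries. In percent of all unique reads this is 0.0586 to 0.235%. The clones lay close at each stage, and the stages did not overlap. VIT_13s0019g04280 gave between 37.1 and 50.4% of these reads in every library. VIT_08s0040g01890 gave 3.48% and 2.91% in wild-type and mutant young berries, but 41.04% and 48.3% in ripe berries. VIT_06s0004g02850 went the other way, from 12.2% and 9.25% in young berries to 0.942% and 0.527% in ripe ones. These are shares of reads, which longer transcripts raise, and not of molecules.

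**Figure D3:**
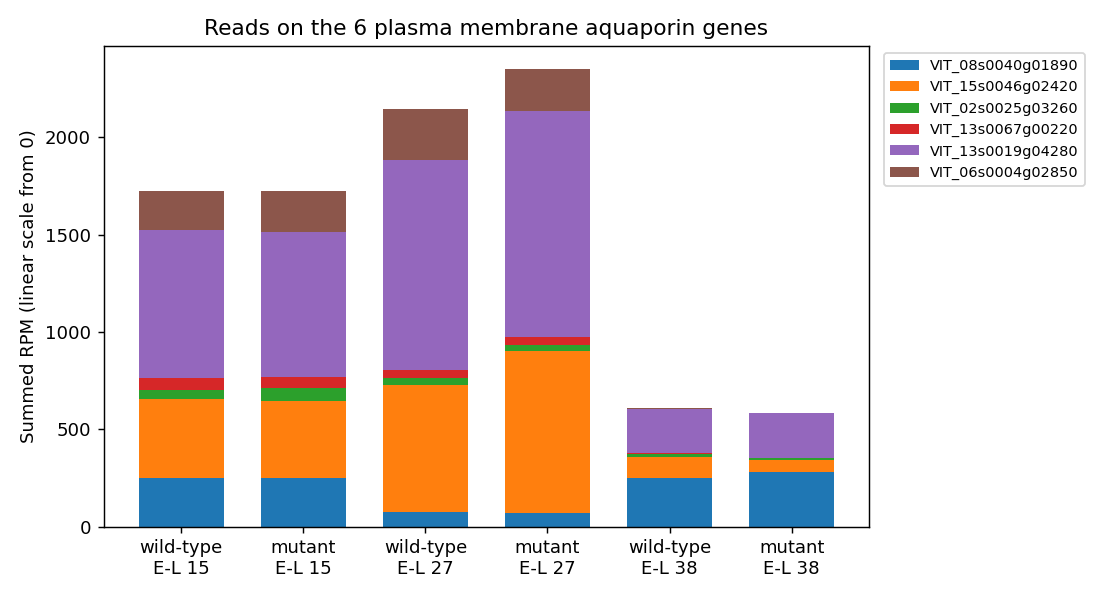
Summed RPM of the 6 plasma membrane aquaporin genes in each library (linear scale from 0, stacked by gene, 1 library per bar, no error bars). Bars reach 1725 to 2353 RPM in flowers and young berries and 586 to 609 RPM in ripe berries, where VIT_08s0040g01890 and VIT_13s0019g04280 take up most of the bar.

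Over all stages, the edgeR fit called none of the 8 aquaporins between mutant and wild-type, and 0% of all genes (0 of 23570). At an unadjusted p below 0.05 it listed 1212 of the 23570 genes, among them 0 aquaporins. Of 22170 genes tested, DESeq2 called 26 higher and 35 lower in the mutant, again 0 aquaporins. With so few genes listed, nothing is read from the absence of aquaporins. Log2 differences of the plasma membrane genes lay between -0.57 ± 0.55 (VIT_13s0067g00220) and 0.09 ± 0.09 (VIT_13s0019g04280). VIT_06s0061g00730 stood at 0.15 ± 0.14 and VIT_16s0039g00220 at -2.57 ± 1.24 (adjusted p = 0.828 and 0.807). At a single stage each clone has 1 library, so the differences that follow have no replicate check, and their intervals cover counting error only.

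In flowers, none of the 7 aquaporins with a mean of at least 1 RPM was over 2-fold apart between the clones, beside 1.17% of all genes. The ratio of mutant to wild-type was between 0.968 and 1.04 for 6 of them. VIT_02s0025g03260 was the exception at 1.47 (1.42 to 1.53), above 97.4% of the genes compared. In young berries again 0 of 7 were over 2-fold apart, beside 3.07% of all genes. There VIT_06s0061g00730 and VIT_15s0046g02420 were higher in the mutant, with ratios of 1.28 (1.27 to 1.29) and 1.27 (1.26 to 1.29), and VIT_06s0004g02850 was lower with 0.830 (0.814 to 0.847).

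In ripe berries 2 of 7 aquaporins were over 2-fold lower in the mutant and 0 over 2-fold higher. Both of the lower ones reached the mean of 1 RPM only through the wild-type library, so they are described by their values and nothing is read from this count. Of all genes, 9.22% were over 2-fold apart in either direction and 7.40% were over 2-fold lower. VIT_16s0039g00220 (BETA-TIP) was 38.0-fold lower (28.5 to 51.9), the 75th lowest ratio of 16946 genes, a set it entered only through the wild-type library. VIT_13s0067g00220 was 6.98-fold lower (4.49 to 11.4), on 22 reads in the mutant against 214 in the wild-type. VIT_15s0046g02420 and VIT_06s0004g02850 were 1.93-fold (1.86 to 1.998) and 1.86-fold (1.59 to 2.18) lower. Past 1.5-fold, 4 of the 7 were lower in the mutant, beside 13.0% of all genes, a count that includes the same 2 genes. VIT_02s0025g03260 was 1.41-fold lower (1.29 to 1.54). Other plasma membrane genes were close between the clones in RPM, at ratios of 1.13 (1.11 to 1.15) for VIT_08s0040g01890 and 1.02 (1.003 to 1.04) for VIT_13s0019g04280. With DESeq size factors these ratios were 1.24 and 1.12, and with TMM factors 1.23 and 1.11, all outside those intervals. VIT_15s0046g02420 was 1.75-fold lower with DESeq size factors and 1.78-fold lower with TMM factors, also outside its interval. VIT_06s0061g00730, below 1 RPM in both, had a ratio of 0.743 with an interval of 0.378 to 1.41. The median log2 ratio was -0.89 over the 7 genes and -0.09 over all genes compared. It also includes the 2 genes that passed only through the wild-type library, so nothing is read from it.

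**Figure D4:**
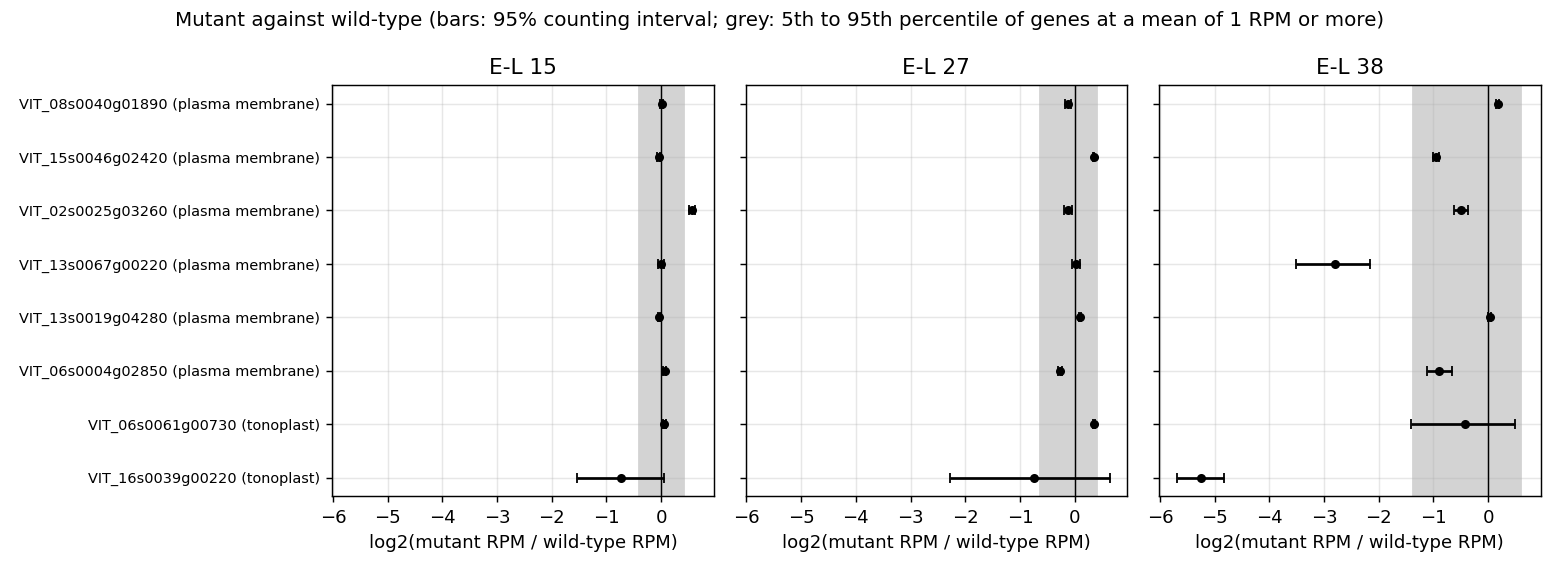
Log2 ratio of mutant to wild-type RPM for the 8 aquaporins at each stage, with bars for the 95% counting interval and a grey band from the 5th to the 95th percentile of genes averaging 1 RPM or more. At E-L 38 VIT_16s0039g00220 at -5.25 and VIT_13s0067g00220 at -2.80 lie outside the band, whose lower edge is -1.38. At the earlier stages VIT_16s0039g00220 is below 1 RPM in both clones and its bars are wide.

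Genes known from maturing seeds differed between the same ripe berry libraries. The list holds 8 genes that the study itself picked from these libraries, so it is not independent of them: oleosin OLE-2 (VIT_17s0000g09000), which coats oil bodies, the storage proteins globulin-1 S (VIT_07s0151g00640), 7S globulin (VIT_14s0128g00200) and a seed storage and lipid transfer protein (VIT_14s0108g00520), the late embryo protein EM6 (VIT_13s0067g01250), the regulator of seed maturation ABI3 (VIT_07s0005g05400), and PM31 (VIT_18s0001g01570) with PM34 (VIT_14s0128g00340), a pair of proteins of maturing seeds. Their sum was 952 RPM in ripe wild-type berries and 1.51 RPM in ripe mutant berries, where 4 of the 8 (7S globulin, EM6, ABI3 and PM34) had 0 reads. In the other 4 libraries the sum was 3.24 to 19.0 RPM. Most of it came from globulin-1 S, which had 12.4 RPM in wild-type and 17.9 RPM in mutant flowers and was thus not restricted to ripe berries. Each of the 8 was lower in the ripe mutant berries by 397-fold or more, a larger difference than the 38.0-fold of BETA-TIP, which still had 47 reads there. The part of the seeds in the differences of BETA-TIP, VIT_13s0067g00220, VIT_15s0046g02420 and VIT_06s0004g02850 was not tested. The genes VIT_16s0039g02230 and VIT_02s0033g00410, listed for ripe berry skin, summed to 68.1 RPM in ripe wild-type and 104 RPM in ripe mutant berries, the reverse direction.

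**Figure D5:**
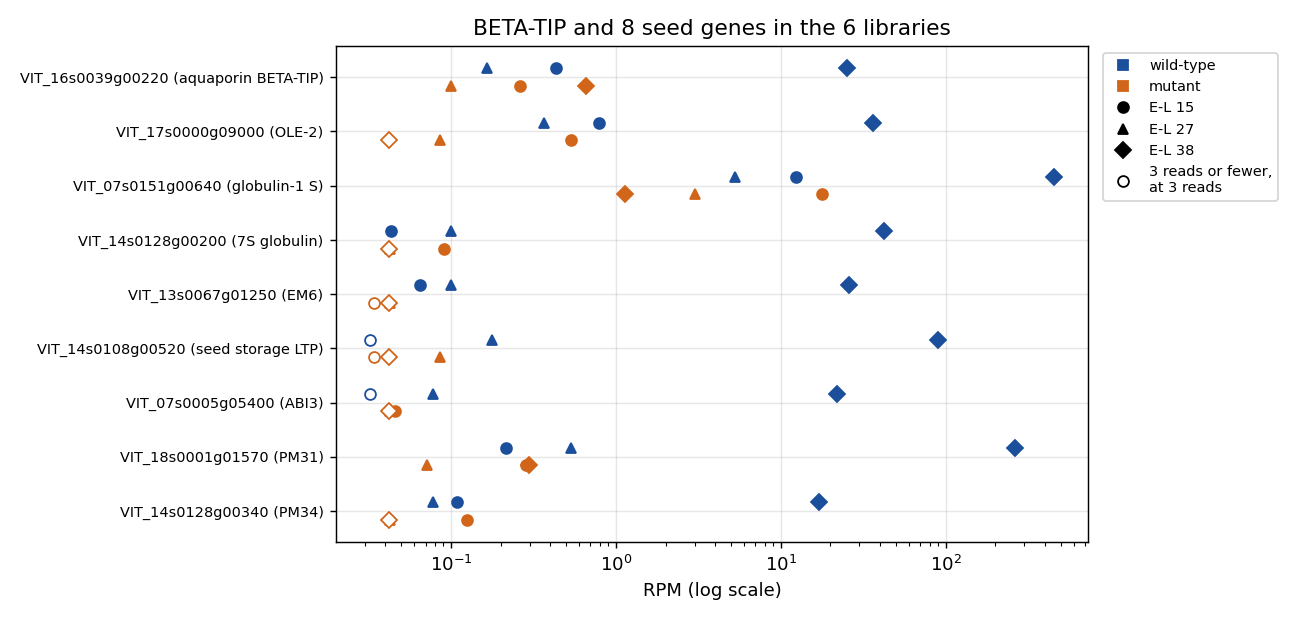
RPM (log scale) of BETA-TIP and the 8 seed genes in each of the 6 libraries, with circles for E-L 15, triangles for E-L 27, diamonds for E-L 38, and open symbols placed at 3 reads where a library had 3 reads or fewer (open symbols of the mutant at E-L 27 and E-L 38 overlap). The ripe wild-type berries stand far to the right in every row, from 17.0 RPM for PM34 to 453 RPM for globulin-1 S, with BETA-TIP at 25.2 RPM.

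Genes with the most similar course were looked up among those named in the study, many of which it picked from these same libraries for their changes, with a mean of at least 1 RPM, by Pearson correlation of log2(RPM + 0.5) over the 6 libraries, which share their stages and depth. BETA-TIP was most like PM31 (r = 0.985), EM6 (r = 0.984) and PM34 (r = 0.983), out of 55 named genes. The study had picked BETA-TIP and these 3 genes together, as called higher from young to ripe berries in the wild-type alone, so their likeness follows from that choice. VIT_06s0061g00730 was most like a wall-associated kinase (VIT_01s0026g01420, r = 0.995), a calmodulin-binding protein (VIT_00s1404g00010, r = 0.9897) and a cytokinin dehydrogenase (VIT_18s0001g13200, r = 0.988). The study had also picked VIT_06s0061g00730 and these 3 genes together, as called lower from young to ripe berries in the wild-type alone. Their likeness follows from that choice as well. In RPM they fell in the mutant too, VIT_06s0061g00730 from 1138 to 0.226 and the kinase from 57.2 to 0.212. There the calmodulin-binding protein went from 14.6 to 0.0423 RPM and the dehydrogenase from 111 to 0.536 RPM. VIT_13s0019g04280 was most like the same kinase (r = 0.998), the same dehydrogenase (r = 0.997) and VIT_06s0061g00730 itself (r = 0.991), all from that same group. Of all 19303 genes with at least 1 RPM, 1446 had an r at or above that of the third named gene for VIT_06s0061g00730, 505 for VIT_13s0019g04280 and 25 for BETA-TIP.

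Gene models next to the aquaporins in the numbering of the annotation were read in the ripe berries as well. Of the 10 nearest identifiers of BETA-TIP, 5 on each side, 5 had a mean of at least 1 RPM, and their log2 ratios of mutant to wild-type lay between -0.34 and 0.13, against -5.25 for BETA-TIP. Around VIT_13s0067g00220, 8 neighbours were measured at this level, with log2 ratios between -1.66 and 1.05, and 2 of them were over 2-fold apart. Around VIT_06s0061g00730 there were also 8, between -1.21 and 0.48, with 2 over 2-fold apart. For each of the other plasma membrane genes 0 neighbours were over 2-fold apart.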

How the data were processed

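The deposited table holds counts of uniquely mapped reads per gene model. Per the study's methods, 100 bp reads were aligned by the authors with BWA to the v1 annotation of the 12x grapevine genome, with up to 2 mismatches in the first 32 bp, and reads with a single position were kept with SAMtools. Versions of both tools are not given in the sources used here. The RPM values were deposited by the authors as counts per 1000000 unique reads of the library, not divided by gene length, and each was checked to equal its count scaled by the library total.

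Stages and clones were tested on the counts with edgeR 4.0.16 (filterByExpr, TMM, quasi-likelihood test, Benjamini-Hochberg adjustment) in R 4.3.3, and with DESeq2 1.42.0 as an alternative. The authors' calls between single libraries with DESeq were not used, since they rest on no replicate. Other alternatives were DESeq size factors, total counts, no filter on low counts, each library left out, and a 1.5-fold limit. Ratios are of RPM, with exact conditional binomial intervals at 95%, and a count of 3 or fewer entered as 3 reads, which makes the ratio a bound. The edgeR script was tested on simulated data with a fixed spread and no clone effect. The real libraries are unlike that, so nothing about the calls is read from it. Python 3.11.15 and matplotlib 3.10.9 were used for ratios and plots.

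All 8 genes of the list are named, with the listed seed, flower and skin genes and the 3 most similar named genes of VIT_06s0061g00730, VIT_16s0039g00220 and the plasma membrane gene with the highest mean RPM. The genes and lists were chosen with earlier results of these data known. Gene lengths, sequences and further aquaporins were not used here, because the reference annotation does not carry these identifiers. With 1 library for each clone and stage, p-values measure the spread left after stage and clone effects.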

Additional observations from a re-analysis of the deposited data

Results flagged for a closer look

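For 5 plasma membrane aquaporins the mutant was above the wild-type at 1 stage and below it at another, each time beyond counting error under RPM, DESeq size factors and TMM factors. How many of all genes do the same was not counted, so nothing particular to the aquaporins is read from the 5. At high read counts very small differences also pass this limit. The difference between stages was not tested, since no replicate is left for it, and these intervals leave out the variation between plants. For VIT_02s0025g03260 the log2 ratio of mutant to wild-type was 0.56 in flowers and -0.49 in ripe berries. VIT_15s0046g02420 had -0.0475 at E-L 15, 0.35 at E-L 27 and -0.95 at E-L 38. For VIT_06s0004g02850 it was 0.0631, -0.27 and -0.89 at the 3 stages. Smaller ratios were those of VIT_08s0040g01890, with -0.12 in young and 0.18 in ripe berries, and of VIT_13s0019g04280, with -0.0359, 0.10 and 0.0333 at the 3 stages.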

How the results depend on the processing

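All 8 aquaporins kept the direction of their edgeR stage changes under the other scalings, without a filter and with DESeq2. From E-L 15 to E-L 27, DESeq2 called 5 aquaporins in place of 3. With a library left out, 0 to 7 were called from E-L 15 to E-L 27, 6 to 8 from young to ripe berries and 5 to 8 from flowers to ripe berries, while the share of all genes called ranged from 0 to 40.1%, from 38.9 to 63.0% and from 43.2 to 65.5%, and 1 residual degree of freedom remained in these fits. They turned the sign of 1 stage change that was not called, that of VIT_06s0004g02850 from E-L 15 to E-L 27 (-0.0447 to 0.52). From E-L 15 to E-L 38, total counts ended the calls of VIT_08s0040g01890 and VIT_16s0039g00220. With a 1.5-fold limit, 4 aquaporins in place of 2 were past it between the clones at E-L 38. Both counts include the 2 that reached the mean of 1 RPM only through the wild-type library. Of the ratios between single libraries, over clones and stages, 65 taken with DESeq size factors or TMM factors fell outside the RPM counting interval. The other 79 stayed within it. Between the clones over all stages, uncalled log2 differences changed sign: VIT_02s0025g03260 was at -0.0149 with total counts, and ranges with a library left out were -0.23 to 0.24 for it, -0.0349 to 0.16 for VIT_08s0040g01890, -0.43 to 0.17 for VIT_15s0046g02420, -1.06 to 0.0327 for VIT_13s0067g00220 and -0.0338 to 0.23 for VIT_06s0061g00730. The cause was not tested. Levels per length were not run. The main fit already holds a term for clone and for stage, and with 1 library in each group there are no shared replicate numbers to pair. A ripe berry level of 0.226 to 0.310 RPM rests on 16 to 30 reads.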
